A study of Homo sapiens with 6 samples.

Results

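The Hedgehog pathway was followed through 9 genes in HCT116 cells depleted of ADNP: the ligand IHH, the receptors PTCH1 and SMO, the cytoplasmic regulators SUFU, KIF7 and STK36, and the transcription factors GLI1, GLI2 and GLI3. These 9 genes are among 23368 gene symbols in the deposited count table, and 6 of them had enough reads to enter the test of all genes. They were chosen by their place in the pathway and from this same comparison, with its fold changes in view, so the differences given for them between siADNP and siControl are a description and carry no test. HCT116 is an established human colon cancer cell line. The cells of the first group had received an siRNA against ADNP, a chromatin-associated protein with zinc fingers and a homeodomain, and those of the second a control siRNA, with 3 libraries in each group. Neither the siRNA sequences nor the dose and time of the treatment are given in the sources used here, and a single cell line was studied. The libraries were made from total RNA, and levels are given as CPM, the reads of a gene relative to all reads assigned to genes in its library, after TMM scaling.

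In vertebrates a Hedgehog ligand binds the receptor PTCH1 and lifts its inhibition of SMO, a membrane protein that then acts at the primary cilium. SMO releases the GLI transcription factors from SUFU and from a processing step that turns GLI3, and to a lesser degree GLI2, into repressors, and full-length GLI2 is regarded as the main activator. GLI1 and PTCH1 are themselves direct targets of the GLI factors and are widely used as readouts of the pathway. In the adult intestine IHH is made by the epithelium and acts mainly on the neighbouring stroma, while GLI genes in colon cancer cells are also described under the control of other signals.

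The known binding sequence of the GLI proteins is GACCACCCA, which reads TGGGTGGTC on the opposite strand, and both were searched for in promoter windows of 300 bases, from 250 bases before to 50 bases after an annotated start, taken from RefSeq (GRCh38.p14). Of 9 members, 7 had at least 1 window and together they had 13. GLI1 and GLI3 had no window, so their promoters were not searched. The exact site occurred in 1 of these 13 windows, an upstream window of PTCH1, where its first base lies at position -172 relative to the start. The same letters occurred in 83 of 35116 windows of all genes (0.236%), and in windows of 81 of 27305 genes (0.297%). Of the 99 other pathway genes described below, 76 had a window and 0 of these held the site. The 250 bases upstream of that PTCH1 start are shown because they hold the site, which is in capitals. They are followed by those of SMO and by both upstream stretches of GLI2, shown because these are the members whose groups did not overlap. All are written 5′ to 3′ on the strand of the gene.
PTCH1 (chr9:95509267-95509516, minus strand): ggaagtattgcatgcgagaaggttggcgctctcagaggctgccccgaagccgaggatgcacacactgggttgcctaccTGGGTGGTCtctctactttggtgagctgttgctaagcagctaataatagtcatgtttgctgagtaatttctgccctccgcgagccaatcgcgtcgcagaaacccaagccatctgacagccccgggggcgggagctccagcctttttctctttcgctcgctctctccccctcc
SMO (chr7:129188383-129188632, plus strand): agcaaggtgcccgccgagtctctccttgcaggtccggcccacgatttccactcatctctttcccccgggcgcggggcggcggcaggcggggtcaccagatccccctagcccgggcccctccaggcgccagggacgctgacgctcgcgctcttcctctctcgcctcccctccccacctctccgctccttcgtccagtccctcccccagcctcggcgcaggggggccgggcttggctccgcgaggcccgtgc
GLI2, first start (chr2:120735618-120735867, plus strand): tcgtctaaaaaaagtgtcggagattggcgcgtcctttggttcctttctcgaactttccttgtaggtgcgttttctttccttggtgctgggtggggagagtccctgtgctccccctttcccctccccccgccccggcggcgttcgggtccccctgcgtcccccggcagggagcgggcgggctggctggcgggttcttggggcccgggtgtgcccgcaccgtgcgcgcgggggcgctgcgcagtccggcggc
GLI2, second start (chr2:120792031-120792280, plus strand): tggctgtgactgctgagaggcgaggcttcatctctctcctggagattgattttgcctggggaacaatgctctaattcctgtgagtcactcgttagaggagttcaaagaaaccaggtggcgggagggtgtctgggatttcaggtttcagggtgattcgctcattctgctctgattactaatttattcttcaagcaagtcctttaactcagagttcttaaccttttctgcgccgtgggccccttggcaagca
The SMO and GLI2 stretches have no capitals because these letters are not in them. That says nothing about binding of a GLI protein there or elsewhere.

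ADNP itself was depleted in every library of the siADNP group. It measured 46.7, 55.3 and 59.8 CPM in the siADNP libraries, against 171, 155 and 167 CPM in the siControl libraries. The log2 fold change was -1.61 ± 0.07 (SE), which leaves 32.9% of the siControl level (adjusted p = 2.62e-20, edgeR quasi-likelihood test with Benjamini-Hochberg adjustment). Reads assigned to genes numbered 7396771 to 8726017 per siADNP library and 8282290 to 10265175 per siControl library. Of 12489 genes tested, 3538 were called at an adjusted p under 0.05 (28.3%), 1824 of them higher with siADNP (14.6%) and 1714 lower (13.7%). The groups did not overlap in CPM for 5099 of the tested genes (40.8%). Of 12 epithelial markers, 9 were tested, and 2 rose, 1 fell and 6 did not pass. The claudin CLDN3 rose to 6.52 ± 0.724 CPM with siADNP, against 2.59 ± 0.658 CPM with siControl (SD, n = 3 each), by 1.31 on the log2 scale, and the claudin CLDN4 rose by 0.25 (adjusted p of 1.85e-05 and 6.91e-03, edgeR). The cytokeratin KRT19 fell by 0.15 on the log2 scale (adjusted p = 0.0203, edgeR). The cytokeratin KRT8 measured 1302 CPM with siADNP and 1297 CPM with siControl and the adhesion molecule EPCAM 328 and 335 CPM. Of the intestinal markers, CDX2 measured 8.49 CPM with siADNP and 7.41 CPM with siControl and did not pass (adjusted p = 0.383, edgeR). KRT20 had 26 reads with siADNP and 20 with siControl and was not tested, while VIL1 and CDX1 had 0 reads in both groups. Fibroblast markers summed to between 7.86 and 10.3 CPM per siADNP library and between 7.48 and 8.44 CPM per siControl library, with DCN, LUM, PDGFRA and FAP at 0 reads. Of these 9 genes only COL1A1 had enough reads to be tested, and it did not pass (log2 fold change 0.14, adjusted p = 0.552, edgeR). Blood cell markers summed to between 9.40 and 10.5 CPM with siADNP and between 7.23 and 7.85 CPM with siControl. Of these 10 genes only CD68, a lysosomal protein, had enough reads to be tested, and it rose by 0.42 on the log2 scale (adjusted p = 0.0366, edgeR), while CD3D, MS4A1 and HBB had 0 reads. The part of such cells in the results below was not tested.

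Against this background GLI2 was the member with the widest separation between the groups, SMO was higher by a smaller step, and PTCH1, GLI1, SUFU and STK36 overlapped between the groups. IHH, KIF7 and GLI3 were at the edge of detection. Of the 6 members tested, 2 passed the threshold in the fit of all genes, both higher with siADNP, 0 were lower, and 2 did not overlap in CPM. These counts stand beside 28.3% of all tested genes called and 40.8% without overlap, and nothing is read from them, because the members were selected on this contrast. The median log2 fold change of the 6 members was 0.15, beside -0.0013 over all tested genes. More copies of a transcript per cell and more cells with the transcript cannot be told apart in these bulk libraries.

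**Figure D1:**
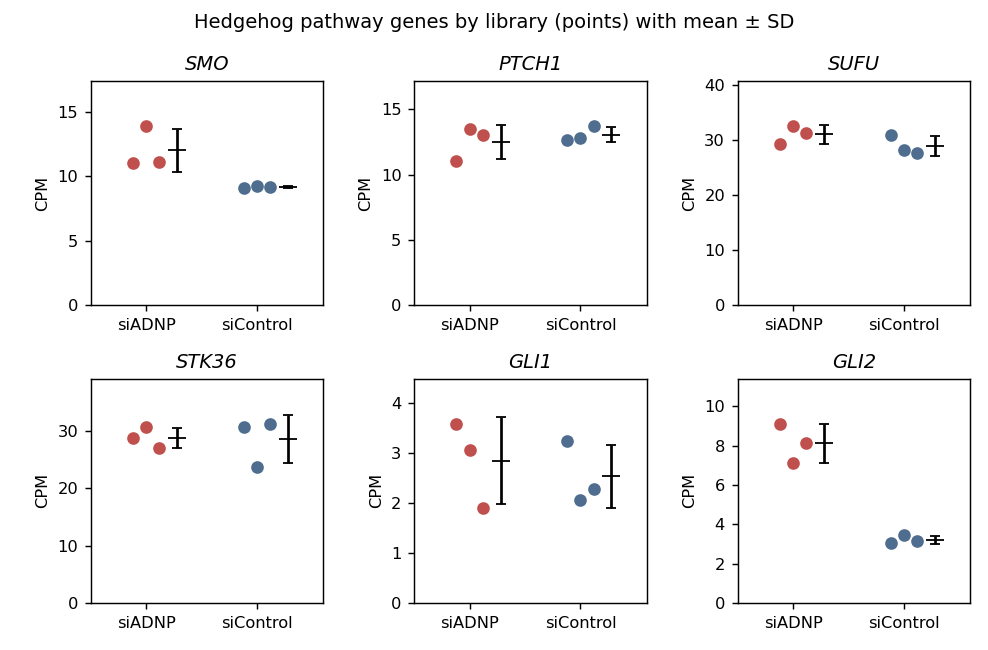
Level in CPM (vertical axes, each from 0) of the 6 tested members in the 3 siADNP libraries (red) and the 3 siControl libraries (blue), with the group mean and SD beside the points. The siADNP points lie above all siControl points for GLI2 (7.14 to 9.12 against 3.03 to 3.44 CPM) and for SMO (11.0 to 13.9 against 9.08 to 9.25 CPM), and the points overlap for the other 4 genes.

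IHH, the Hedgehog ligand of the gut epithelium, had 1 read in siADNP library 1 and 0 in the other siADNP libraries, against 0 in all 3 siControl libraries. A count of 0 allows up to 3 reads, which is 0.344 to 0.406 CPM in the siADNP libraries and 0.292 to 0.362 CPM in the siControl libraries, so IHH was under the detection limit in both groups. The other ligands, which are no members, were as scarce. SHH had 0 reads in all libraries, and DHH had 2 reads in all with siADNP and 3 with siControl.

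PTCH1, the receptor that restrains SMO in the absence of ligand, measured 11.0, 13.5 and 13.0 CPM in the siADNP libraries, against 12.7, 12.8 and 13.7 CPM in the siControl libraries. The lowest value came from siADNP library 1, and the other siADNP libraries lay inside the siControl range, so the groups overlapped. The group means were 12.5 ± 1.29 CPM with siADNP and 13.1 ± 0.590 CPM with siControl (SD, n = 3 each), a log2 fold change of -0.06 ± 0.13 (SE) with a 95% interval of -0.32 to 0.20. These values rest on 86, 119 and 96 reads with siADNP and 113, 130 and 114 reads with siControl.

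SMO, the transducer that PTCH1 holds in check, measured 11.0, 13.9 and 11.1 CPM in the siADNP libraries, against 9.08, 9.25 and 9.16 CPM in the siControl libraries. All 3 siADNP libraries lay above the siControl libraries, and library 2 stood above the other siADNP libraries. The means were 12.03 ± 1.65 CPM with siADNP and 9.16 ± 0.0824 CPM with siControl (SD, n = 3 each), and the log2 fold change was 0.40 ± 0.14 (SE), or 1.32-fold. Without siADNP library 2 the log2 fold change was 0.27, and it was 0.26 ± 0.14 when an offset for the GC content of each gene was fitted. SMO passed the threshold for all genes in neither setting, nor with DESeq2 or without any 1 of the siControl libraries. Per transcript length, SMO stood at 2.84, 2.94 and 2.43 times the level of PTCH1 in the siADNP libraries and at 2.04, 2.06 and 1.90 times in the siControl libraries. The mean ratio was 2.74 ± 0.271 with siADNP and 1.997 ± 0.0879 with siControl (SD, n = 3 each), and the groups did not overlap. The size of the ratio depends on the length used for each gene. SMO was chosen on this contrast, so the separation of the ratio is a description and nothing is read from it.

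SUFU, which binds GLI proteins in the cytoplasm and holds them inactive, measured 29.3, 32.6 and 31.3 CPM in the siADNP libraries, against 30.9, 28.2 and 27.6 CPM in the siControl libraries. The groups overlapped through siControl library 1. The means were 31.1 ± 1.68 CPM with siADNP and 28.9 ± 1.77 CPM with siControl (SD, n = 3 each). Their log2 difference was 0.11 ± 0.09 (SE), and its 95% interval ran from -0.07 to 0.28. SUFU had 228 to 288 reads per siADNP library and 229 to 287 per siControl library, the best covered member beside STK36.

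STK36, the human homologue of the Drosophila kinase Fused, measured 28.8, 30.7 and 27.1 CPM in the siADNP libraries, against 30.7, 23.8 and 31.3 CPM in the siControl libraries. The siADNP values fell inside the range of the siControl values. The log2 fold change was 0.02 ± 0.10 (SE), with a 95% interval of -0.17 to 0.22. KIF7, a kinesin of the ciliary tip that organises SUFU and GLI proteins, had 3, 0 and 1 reads in the siADNP libraries, against 0 in all 3 siControl libraries. No library exceeded the 3 reads that a count of 0 allows, so no fold change is given.

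GLI1, the GLI factor that is itself a pathway target, measured 3.596, 3.06 and 1.90 CPM in the siADNP libraries, against 3.25, 2.07 and 2.29 CPM in the siControl libraries. These are 28, 27 and 14 reads with siADNP and 29, 21 and 19 reads with siControl, and the groups overlapped over most of their range. The log2 fold change of 0.19 ± 0.28 (SE) had a 95% interval of -0.38 to 0.75, which holds differences of either sign, so the sign is not settled at this depth. Leaving out siADNP or siControl libraries 1 at a time moved it between 0.00087 and 0.40.

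GLI2, the GLI factor with both activator and repressor forms, measured 9.12, 7.14 and 8.13 CPM in the siADNP libraries, against 3.03, 3.44 and 3.13 CPM in the siControl libraries. Every siADNP library lay above every siControl library, and the gap between the groups was wider than the range within either. The reads behind these levels were 71, 63 and 60 with siADNP and 27, 35 and 26 with siControl. The means were 8.13 ± 0.992 CPM with siADNP and 3.20 ± 0.216 CPM with siControl (SD, n = 3 each), a log2 fold change of 1.33 ± 0.19 (SE), or 2.51-fold. Leaving out any 1 library gave 1.24 to 1.42, and the other scalings, filters, tools and covariates gave 1.19 to 1.35.

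GLI3, the main repressor of the family, had 0, 0 and 2 reads in the siADNP libraries, against 0 in all 3 siControl libraries, and is under the detection limit in both groups. Nearly all GLI reads thus belonged to GLI1 and GLI2. GLI2 took 71.7%, 70.0% and 78.9% of the GLI1, GLI2 and GLI3 reads in the siADNP libraries, against 48.2%, 62.5% and 57.8% in the siControl libraries. The shares did not overlap between the groups, with means of 73.6% ± 4.75 with siADNP and 56.2% ± 7.28 with siControl (SD, n = 3 each). The 95% exact binomial interval was 59.4% to 79.2% in the lowest siADNP library and 48.5% to 75.1% in the highest siControl library, and these intervals overlap. The intervals treat every read as an independent molecule, which reads without molecular identifiers are not, so the intervals may be too narrow. Spread between libraries is not in them, and GLI2 was chosen on this contrast, so their overlap is no test.

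**Figure D2:**
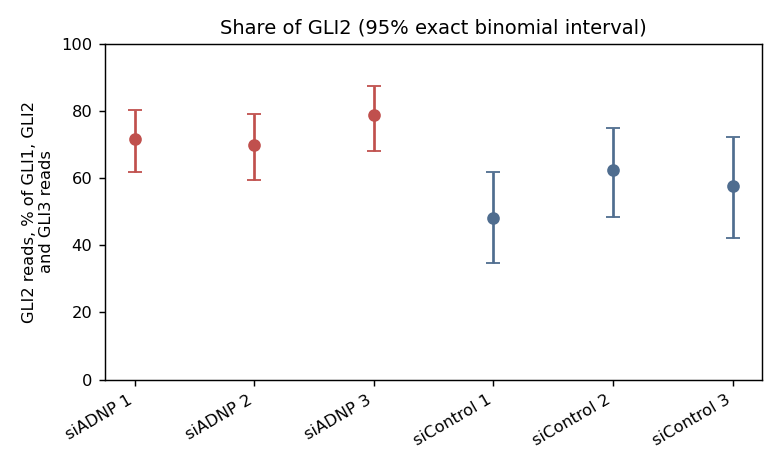
Share of GLI2 among the reads of GLI1, GLI2 and GLI3 (vertical axis, percent) in each siADNP library (red) and each siControl library (blue), with 95% exact binomial intervals as bars. The siADNP libraries stand at 70.0% to 78.9% and the siControl libraries at 48.2% to 62.5%, and the bars of neighbouring values overlap.

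Levels of different genes were compared per transcript length, as TPM, reads divided by the length of the longest annotated transcript of the gene and scaled to the same total in every library. SUFU and STK36 were the most abundant members, with SUFU at 16.3 ± 1.38 TPM with siADNP and 15.2 ± 0.877 TPM with siControl, and STK36 at 15.3 ± 1.41 and 15.3 ± 2.43 TPM (SD, n = 3 each). These neighbours did not differ beyond their spread. SMO followed at 8.44 ± 1.45 TPM with siADNP and 6.46 ± 0.103 TPM with siControl, below STK36 and above PTCH1 in every library. PTCH1 stood at 3.08 ± 0.398 TPM with siADNP and 3.24 ± 0.197 TPM with siControl.

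The GLI factors stood in a different order in each group. With siADNP, GLI2 stood at 3.12 ± 0.291 TPM, within the spread of PTCH1, and GLI1 below both at 2.07 ± 0.628 TPM. With siControl, GLI2 was the lowest of the 6 at 1.24 ± 0.0730 TPM, under GLI1 at 1.85 ± 0.458 TPM (SD, n = 3 each). The ratio of GLI2 to GLI1 per length was 1.35, 1.24 and 2.28 in the siADNP libraries, against 0.495, 0.886 and 0.727 in the siControl libraries, so GLI2 exceeded GLI1 in 3 of 3 siADNP libraries and in 0 of 3 siControl libraries. The order depends on the length used. Per length of the longest coding sequence, SUFU stood at 24.3 TPM with siADNP and 22.4 TPM with siControl, well above STK36 at 8.32 and 8.16 TPM. SMO stood at 5.80 TPM with siADNP and 4.36 TPM with siControl, nearer to PTCH1 at 3.28 and 3.38 TPM than per transcript length. On that scale GLI2 stood at 1.94 TPM with siADNP and 0.756 TPM with siControl, and GLI1 at 0.977 and 0.859 TPM, so that GLI1 and GLI2 were within their spread with siControl.

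**Figure D3:**
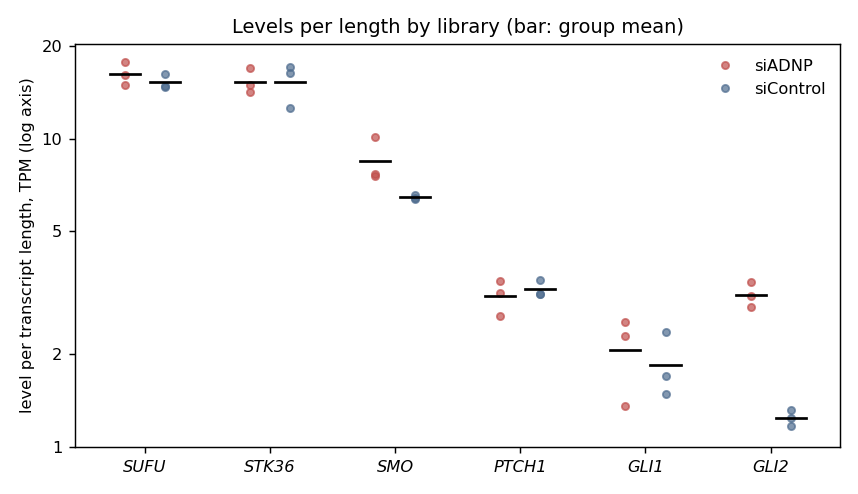
Level per transcript length in TPM (vertical axis, logarithmic) of the 6 tested members in each library, siADNP in red left of siControl in blue, with a bar at each group mean. SUFU and STK36 lie near 15 to 16 TPM in both groups, and GLI2 lies above GLI1 with siADNP (3.12 and 2.07 TPM) and below it with siControl (1.24 and 1.85 TPM).

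GC content differed between the genes called in each direction, and the members differ in it too. The median GC content of the longest transcript was 54.0% for genes called higher, 43.0% for genes called lower and 48.6% for genes not called, over the 12078 tested genes (96.7%) with a value. It was 60.8% for GLI2, 61.5% for SMO, 58.6% for GLI1, 56.6% for SUFU, 54.2% for STK36 and 48.7% for PTCH1. With an offset for GC content in the fit, the log2 fold change of GLI2 was 1.19 ± 0.19 (SE) in place of 1.33, that of SUFU 0.0039 in place of 0.11, that of GLI1 0.07 in place of 0.19 and that of STK36 -0.05 in place of 0.02. With that offset SMO did not pass the threshold for all genes, and the median over the 6 members was 0.04. The members were chosen on this contrast, so passing a threshold in any setting is no support for them.

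**Figure D4:**
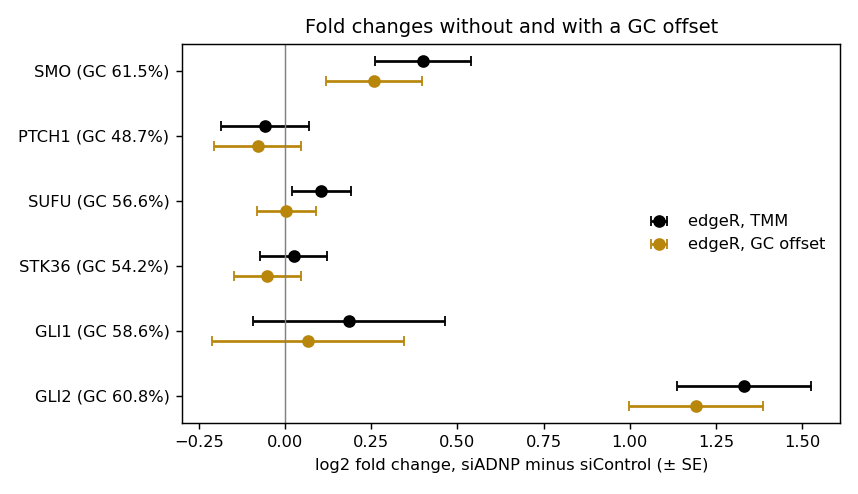
Log2 fold change of the 6 tested members, siADNP minus siControl (horizontal axis, bars ± SE), from edgeR with TMM scaling (black) and with an offset for GC content (ochre), with the GC content of each gene beside its name. GLI2 stands at 1.33 and 1.19 and SMO at 0.40 and 0.26, and the bars of GLI1, STK36 and PTCH1 cross 0.

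The nearest tested genes beside GLI2 and SMO in the RefSeq annotation, picked after their values were seen, did not pass the threshold with all 6 libraries and TMM scaling. RALB, which lies before GLI2 and encodes a small GTPase, differed by 0.08 ± 0.07 on the log2 scale (SE; adjusted p = 0.404, edgeR), and TFCP2L1, a transcription factor gene after it, by -0.15 ± 0.06 (adjusted p = 0.0886, edgeR; 0.0378 with the GC offset). TSPAN33, which encodes a tetraspanin before SMO, stood at 0.27 ± 0.12 (adjusted p = 0.0842, edgeR) and AHCYL2 after it at 0.18 ± 0.07 (adjusted p = 0.0606, edgeR). TSPAN33 passed without siADNP library 2 (0.35, adjusted p = 0.0382). AHCYL2 passed with upper-quartile scaling (adjusted p = 0.0324), with library totals (0.0467) and without siADNP library 1 (0.0396) or siControl library 1 (0.0491), at 0.20 to 0.23 on the log2 scale. None of the annotated genes that overlap GLI2 or SMO has a symbol in the count table.

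The genes whose level followed that of GLI2 most closely over the 6 libraries were sought among 10539 other genes of at least 5 CPM on average. Symbols beginning with LOC or LINC were left out of these. Those with the highest Pearson r of log2 CPM were RLTPR (0.999), ERCC1 (0.998), DHCR7 (0.998), ORAI2 (0.997) and CRABP2 (0.997), a description over 6 libraries that share the same group labels. RLTPR, an actin-capping regulator, measured 11.5 ± 0.906 CPM with siADNP and 7.001 ± 0.160 CPM with siControl (SD, n = 3 each). ERCC1, a subunit of a DNA repair nuclease, measured 77.4 ± 1.80 and 62.8 ± 0.839 CPM. DHCR7, the last enzyme of cholesterol synthesis, measured 163 ± 6.36 CPM with siADNP and 126 ± 2.19 CPM with siControl. ORAI2, a calcium channel subunit, had a log2 fold change of 1.38 and CRABP2, a retinoic acid carrier, one of 1.24, the values nearest in size to that of GLI2. These genes were picked for following GLI2, which itself was chosen on this contrast, so their higher levels with siADNP come with the choice and are given without a test.

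The other genes of the pathway are given by role, from lists that hold no member. Of 11 genes for ligand processing and release, 6 were tested, and 2 rose, 0 fell and 4 did not pass. The share called was 33.3%, beside 28.3% of all tested genes, and the median log2 fold change was 0.24. SCUBE1, a secreted protein of the family that helps release lipid-bearing ligand, measured 6.55, 4.64 and 5.97 CPM with siADNP, against 2.58, 2.46 and 2.77 CPM with siControl. All siADNP libraries lay above the siControl libraries, by 1.13 ± 0.22 on the log2 scale (SE; adjusted p = 1.94e-04, edgeR). GPC1, a cell surface glypican, rose by 0.27 ± 0.07 on the log2 scale (adjusted p = 3.25e-03, edgeR). Under the GC offset its value was 0.10 and missed the threshold.

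Of 14 genes for ligand reception beside PTCH1 and SMO, 8 were tested, and 1 rose, 0 fell and 7 did not pass. This makes 12.5% called, beside 28.3% of all tested genes, with a median of -0.0027. With the GC offset 1 rose and 2 fell, and with the GC offset and replicate block 0 rose and 2 fell. With DESeq2 0 passed in either direction. Calls over all genes varied with the setting too, so nothing is read from these changes. The riser was GPR161, a ciliary receptor that raises cyclic AMP and restrains the pathway. It measured 12.3 ± 1.16 CPM with siADNP and 9.22 ± 0.908 CPM with siControl (SD, n = 3 each), a log2 fold change of 0.40 ± 0.14 (SE; adjusted p = 0.0283, edgeR). Its adjusted p was 0.138 with DESeq2 and 0.0523 to 0.129 without siADNP library 1 or 3 or siControl library 1 or 3, and 0.0555 with the GC offset and replicate block. The coreceptor CDON had a log2 fold change of 0.04 ± 0.09 and the coreceptor BOC one of 0.56 ± 0.37, and neither passed (adjusted p of 0.769 and 0.264, edgeR).

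Of 23 genes that modify, degrade or assist GLI proteins, all were tested, and 1 rose, 4 fell and 18 did not pass. Called genes were 21.7% of them, beside 28.3% of all tested genes, and the median was -0.0058. The counts varied with the setting. They were 3 higher and 1 lower under upper-quartile scaling, and 2 and 3 under library totals. With the GC offset they were 3 and 3, and with DESeq2 0 and 1. Calls over all genes varied too, at 1100 higher and 1071 lower with DESeq2, against 1824 and 1714 in the main fit. The share of all genes is not given for each setting, so nothing is read from these changes. ULK3, a kinase that phosphorylates GLI proteins, fell to 23.8 ± 2.55 CPM with siADNP, against 30.6 ± 1.70 CPM with siControl (SD, n = 3 each), a log2 fold change of -0.37 ± 0.09 (SE; adjusted p = 2.84e-03, edgeR). MED12, a Mediator subunit, rose by 0.21 ± 0.06, and the endocytic adaptor NUMB and its partner ITCH, a ubiquitin ligase, fell by 0.20 and 0.15 on the log2 scale (adjusted p of 0.0150, 0.0289 and 0.0256, edgeR). MED12, NUMB and ITCH did not pass with the GC offset or with DESeq2. The adjusted p was 0.0552 to 0.0604 for MED12 without siADNP library 1 or 2 or siControl library 3, 0.0762 to 0.142 for NUMB without siADNP library 1 or siControl library 2 or 3, and 0.0741 and 0.216 for ITCH without siADNP library 1 or siControl library 2. Several kinases and ligase adaptors named with GLI processing did not pass, among them PRKACA at 0.06, GSK3B at 0.05, BTRC at 0.11 and SPOP at -0.07. CUL1, a ubiquitin ligase subunit, was called lower at -0.13, close to the threshold (adjusted p = 0.0487, edgeR).

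Of 26 genes for ciliary transport and assembly, 25 were tested, and 1 rose, 6 fell and 18 did not pass. That is 28% called, near the 28.3% of all tested genes, with a median of 0.02. Upper-quartile scaling and the GC offset each gave 2 higher and 3 lower, and DESeq2 gave 0 and 2. Nothing is read from these changes either, as calls over all genes varied with the setting. KIF3B, a motor subunit of the kinesin that carries cargo into the cilium, measured 88.0, 87.1 and 78.9 CPM with siADNP, against 110, 111 and 116 CPM with siControl. The groups did not overlap, and the log2 fold change was -0.40 ± 0.06 (SE; adjusted p = 1.54e-06, edgeR). DYNC2LI1, a light intermediate chain of the dynein that returns cargo, fell to 7.52 ± 1.34 CPM with siADNP, against 11.5 ± 0.392 CPM with siControl (SD, n = 3 each), its log2 fold change being -0.59 ± 0.15 (SE; adjusted p = 2.70e-03, edgeR). INTU, a planar polarity effector, fell by 0.26 and TMEM67, a protein of the ciliary transition zone, rose by 0.26 on the log2 scale (adjusted p of 0.0262 and 9.81e-03, edgeR). INTU did not pass with the GC offset, and neither passed with DESeq2. The adjusted p of INTU was 0.0660 to 0.213 without siADNP library 2 or 3 or siControl library 2 or 3, and that of TMEM67 was 0.0775 and 0.0644 without siADNP library 2 or siControl library 1. KIF3A, the partner of KIF3B, did not pass and had a log2 fold change of 0.04. KIFAP3, a further subunit of that kinesin, was called lower at -0.26 (adjusted p = 0.0462, edgeR), though its groups overlapped in CPM.

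Of 20 genes described as GLI targets in various tissues, 12 were tested, and 2 rose, 2 fell and 8 did not pass. Calls made up 33.3% of those tested, beside 28.3% of all tested genes, and the median was 0.02. CCND1, the cyclin D1 gene, measured 712, 654 and 654 CPM with siADNP, against 916, 903 and 895 CPM with siControl. The groups did not overlap, and the log2 fold change was -0.43 ± 0.05 (SE; adjusted p = 6.42e-09, edgeR). CDK6, a kinase partner of cyclin D1, fell to 143 ± 10.05 CPM with siADNP, against 191 ± 9.27 CPM with siControl (SD, n = 3 each), and FOXM1, a mitotic transcription factor, rose to 148 ± 1.55 CPM with siADNP, against 115 ± 2.55 CPM (adjusted p of 3.39e-07 and 2.15e-06, edgeR). SPP1, which encodes osteopontin, rose to 2.62 ± 0.199 CPM with siADNP, against 1.48 ± 0.486 CPM with siControl (adjusted p = 0.0391, edgeR). The SPP1 call held in 5 of 8 other settings and in 1 of 6 fits without a library, with an adjusted p of 0.194 in DESeq2 and of 0.0599 to 0.192 without any 1 siADNP library or siControl library 2 or 3, and rests on 63 reads with siADNP and 40 with siControl. HHIP, a ligand-binding antagonist that is among the most direct targets of the pathway, had 0 reads with siADNP and 1 read with siControl. These genes also answer to other signals, and the list does not single out the GLI factors.

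Of 8 relatives of the GLI factors with a similar zinc finger domain, 4 were tested, and 1 rose, 0 fell and 3 did not pass. Their share called was 25%, beside 28.3% of all tested genes, and their median was 0.23. GLIS2 measured 15.03, 12.6 and 10.3 CPM with siADNP, against 8.74, 8.66 and 7.84 CPM with siControl. Every siADNP library lay above the siControl libraries, by 0.59 ± 0.15 on the log2 scale (SE; adjusted p = 2.44e-03, edgeR). ZIC2 and ZIC5, tested too, had log2 fold changes of 0.0027 and -0.01, and ZIC1 and ZIC4 had 0 reads in all libraries. Genes that stand in a pair of lists, such as HHIP and ZIC2, are counted in both.

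**Figure D5:**
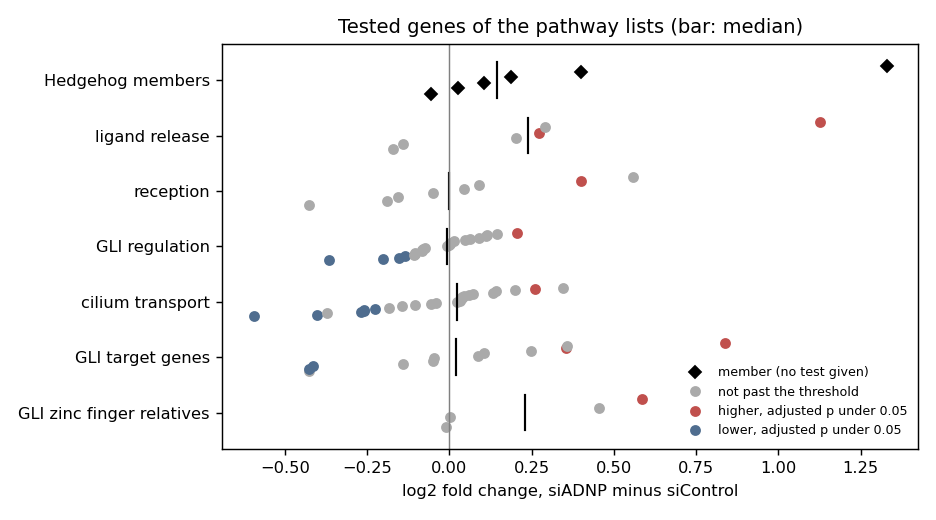
Log2 fold change, siADNP minus siControl (horizontal axis), of each tested gene of the members (black diamonds, no test) and of 6 lists of other pathway genes (points, red where higher and blue where lower at an adjusted p under 0.05, gray otherwise), with a bar at each median. The medians lie between -0.0058 and 0.24 for the 6 lists and at 0.15 for the members, with GLI2 at 1.33 the highest point of all.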

How the data were processed

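The authors deposited counts of reads per gene symbol for 6 libraries. Per the submitters' processing notes they used STAR, HTSeq and DESeq2 on hg19, with versions not given. The sources used here do not give the annotation or the strand setting, and overlapping or antisense genes may share reads. Per library, 26.4% to 28.3% of all counted reads were assigned to genes, while 53.5% to 55.7% met no feature, 17.4% to 17.9% had no unique alignment and 0.455% to 0.500% were ambiguous. Only assigned reads entered library sizes. A second deposited table of transformed values was not used.

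The test was that of edgeR 4.0.16 under R 4.3.3 (TMM, filterByExpr with a minimum count of 10, glmQLFit and glmQLFTest, two-sided, Benjamini-Hochberg over all tested genes, adjusted p under 0.05), checked on simulated counts. Standard errors were derived as log2 fold change over root F. The 3 libraries of a group are called biological replicates without mention of separate cultures, so p-values reflect only the spread among these libraries, which may be technical. Chi-square per degree of freedom between libraries was 1.81 to 3.04 within a group and 6.66 to 8.56 between groups. Transcript length, coding length and GC content came from GENCODE release 29. The GC offset was a loess of span 0.5 per library. Alternatives were other scalings, filters, DESeq2 1.42.0, GC offsets, a replicate block and leaving out each library. Figures were drawn with matplotlib 3.10.9 in Python 3.11.15.

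Members and lists were chosen with earlier results of these data known. Named genes are all members, ADNP, up to 4 called genes per list with the smallest p, and the 5 genes most like GLI2. Those 5 were sought among genes of at least 5 CPM, without symbols beginning with LOC or LINC. HHIP, SHH, DHH, CDON, BOC, PRKACA, GSK3B, BTRC, SPOP, CUL1, KIF3A, KIFAP3, ZIC1, ZIC2, ZIC4, ZIC5, neighbours and markers were named after their values were seen. Some listed genes are not reported here, and counts over lists include them.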

Additional observations from a re-analysis of the deposited data

How the results depend on the processing

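With DESeq2, 1100 genes were called higher and 1071 lower, against 1824 and 1714 with edgeR. Of the Hedgehog members, 1 was called (GLI2) with DESeq2, with the GC offset and with the GC offset and replicate block. GLI2 alone was also called without siADNP library 2 or any 1 siControl library. In the main fit it was 2 of 6 tested members, beside 28.3% of all tested genes. The share of all genes is not given for each other setting. Nothing is read from any count of members, which were chosen on this contrast. Calls among the ligand release genes fell to 1 with the GC offset, with or without the replicate block. Among the reception genes, 0 were called with DESeq2, 3 with the GC offset and 2 with the GC offset and replicate block. With DESeq2, 1 of the GLI regulation genes and 2 of the cilium transport genes were called. The cause was not tested.

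Leaving out 1 library at a time, which also leaves fewer samples, gave 1470 to 1655 genes higher and 1307 to 1508 lower, and 1 to 2 members. It gave 2 to 2 calls for ligand release, 0 to 2 for reception, 1 to 4 for GLI regulation, 3 to 5 for cilium transport, 3 to 4 for GLI target genes and 1 to 1 for the GLI zinc finger relatives. The log2 fold change of ADNP ranged from -1.68 to -1.51. No value that had passed the threshold turned its sign in any alternative run. PTCH1, which never passed, ranged from -0.12 to 0.02, and STK36 from -0.10 to 0.09.

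The replicate numbers gave no pairing: libraries of the same number correlated in their deviations from the group means with r of 0.05, -0.07 and -0.04 over 10658 genes. With a replicate block, 1694 genes were higher and 1542 lower, 2 members were called, and the log2 fold changes of GLI2 and SMO were 1.33 and 0.40. The planned coding length from the RefSeq protein was not run, since no protein table was used here, and the longest coding sequence was taken instead, a choice made after seeing the data. Depth limits GLI1, at 14 to 29 reads per library, and GLI3, IHH and KIF7, at 0 to 3.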
